A study of Mus musculus with 4 samples.

Results

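Spermatogonial regulators were followed in testis RNA from mice without Tas1r3, a subunit shared by the sweet and umami taste receptors. The set was defined by gene symbol and held 10 genes, of which 9 had values among the 17924 gene symbols of the deposited table. Nanos3, an RNA-binding factor of undifferentiated spermatogonia, had no row there and was not analysed here. The set was divided by stage into 7 undifferentiated genes (Zbtb16, Gfra1, Id4, Nanos3, Lin28a, Uchl1 and Sall4) and 3 differentiating genes (Kit, Stra8 and Dmrt1). Dmrt1 is made in both stages, so the stage contrast is also given without it.

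The 4 bulk RNA-seq libraries came from testes of male C57BL/6 mice on a normal diet for 18 weeks, 2 labelled Tas1r3 KO (KO) and 2 labelled WT. The sources used here do not give the age of the mice, the deleted part of Tas1r3 or whether each library came from its own animal, so p-values measure only the spread between these libraries, which may be technical. Tas1r3 itself stood at 1.34 and 0 CPM (reads scaled to a library total of 1000000) in KO samples 1 and 2, against 13.8 and 20.5 CPM in WT samples 1 and 2. The value of 1 read, taken from the spacing of low values, put depth at 748637 and 597937 reads in KO and at 1719355 and 1807697 reads in WT, a mean 2.62 times greater in WT. A floor of 3 reads was therefore worth 4.01 and 5.02 CPM in the KO libraries, against 1.75 and 1.66 CPM in the WT libraries.

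Spermatogonia are the mitotic germ cells at the base of the seminiferous tubule. A small pool of undifferentiated cells, which includes the stem cells, is kept by glial cell line-derived neurotrophic factor from Sertoli cells. Retinoic acid moves these cells into differentiation, marked by the receptor KIT, and later induces Stra8 at the entry into meiosis. In whole testis these cells are few among spermatocytes and spermatids. In bulk RNA, fewer cells of a type and less RNA per cell cannot be told apart. The defining transcripts of the tissue were abundant, and 6 elongating spermatid genes (Prm1, Prm2, Tnp1, Tnp2, Odf1 and Smcp) summed to 22630 and 33240 CPM in KO and to 26880 and 26890 CPM in WT. The 9 spermatogonial genes together reached 183.7 and 187.7 CPM in KO and 172.4 and 149.3 CPM in WT.

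The member that stood apart was Sall4, a zinc finger transcription factor that undifferentiated spermatogonia need, and its value rests on 1 of several transcripts. The table listed only the transcript NM_175303, of 5073 bases, on the minus strand of chromosome 2 from 168590252 to 168609122 (mm39). The RefSeq annotation of the older build GRCm38.p6 holds 3 curated Sall4 transcripts; rows for NM_201395 and NM_201396 were not analysed here. In the GENCODE M21 transcript sequences, NM_201395 matched the listed transcript except for 1332 bases missing from it, and its 3741 bases covered 73.7% of the listed transcript. NM_201396 lacked 2367 inner bases, and its 2534 bases covered 50.0%. A read tells these transcripts apart only in the skipped part, across the junctions below, or upstream of the first base of the short transcript. They are shown because they mark what the deposited Sall4 value can and cannot separate; capitals mark bases of the listed transcript that NM_201395 skips.

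NM_175303: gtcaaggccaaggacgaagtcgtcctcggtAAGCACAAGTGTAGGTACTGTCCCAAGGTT
NM_201395: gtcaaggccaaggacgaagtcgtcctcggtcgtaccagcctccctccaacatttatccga
NM_201396: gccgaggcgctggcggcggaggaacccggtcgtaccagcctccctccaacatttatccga

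Kit, the receptor for stem cell factor, had both of its curated transcripts in the table. They differ by 12 bases in the part that encodes the region just outside the membrane, shown in capitals; the second transcript skips them.

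NM_001122733: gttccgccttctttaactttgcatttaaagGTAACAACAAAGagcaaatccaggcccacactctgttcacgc
NM_021099: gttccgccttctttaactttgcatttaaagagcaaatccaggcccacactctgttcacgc

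Levels below are sums over the listed transcripts of a gene. Each fold change sets KO over WT after log2(CPM + 1), a scale that makes the change of a low gene look smaller than it is. Of the 9 members, 0 passed as higher and 0 as lower in limma after Benjamini-Hochberg adjustment over 17744 tested genes; over all genes the shares called were 0.0% higher and 0.00564% (1 gene) lower. With limma p under 0.05 before adjustment, 0 members were higher and 1 was lower (Sall4), where 1.37% of all genes were higher and 3.33% lower. All 9 met the filter of 1 CPM in at least 2 libraries, 8 of them in every library and Sall4 only through the WT libraries.

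**Figure D1:**
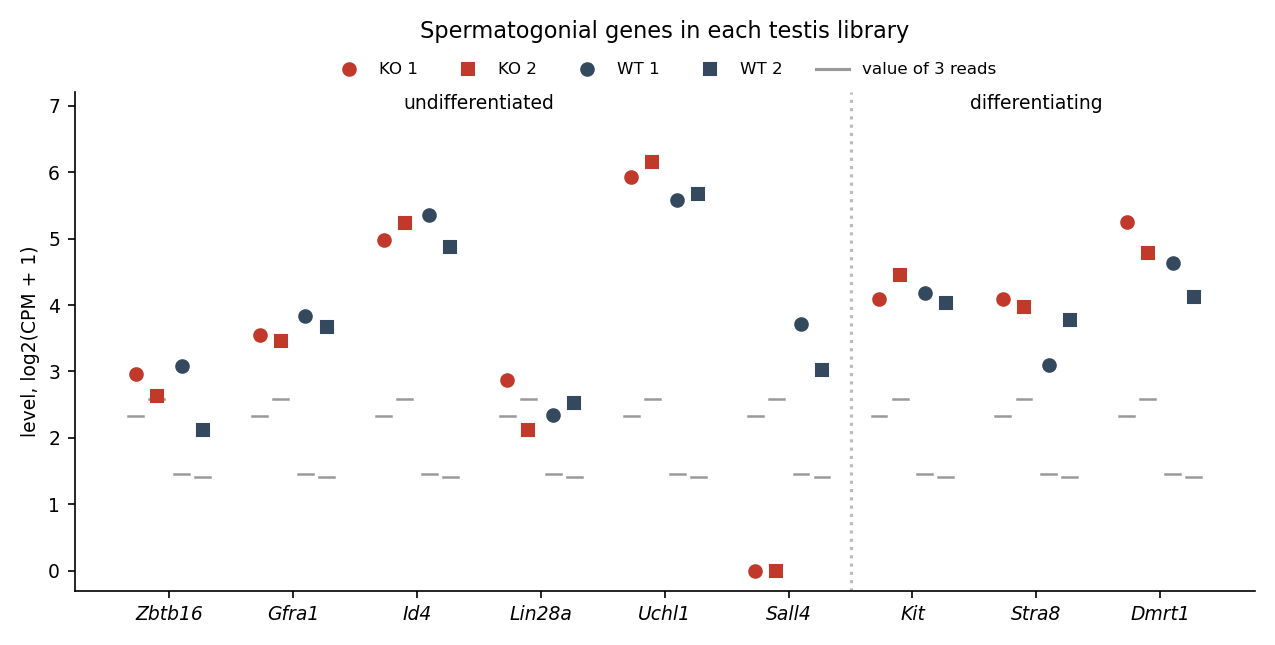
Level of each spermatogonial gene, log2(CPM + 1) on the vertical axis, in KO samples 1 and 2 (red) and WT samples 1 and 2 (dark blue); grey dashes mark the value of 3 reads in each library. Sall4 lies on the baseline in both KO libraries, and the other genes lie near or above the dashes in all 4.

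Sall4 was listed at 1.38e-06 and 1.33e-10 CPM in KO samples 1 and 2, against 12.1 and 7.15 CPM in WT samples 1 and 2. Each KO value corresponds to less than 0.5 reads, and the WT values to about 20.8 and 12.9 reads. Both KO libraries thus lay below both WT libraries. Pooled by genotype and rounded, the estimates for the listed transcript were 0 reads in KO and 34 in WT. Taking these estimates as counts, the exact 95% upper bound of its KO level, scaled for depth, was 0.30 of WT. Like every interval here it covers counting error only, and it does not cover reads given to other Sall4 transcripts.

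The fitted log2 fold change of Sall4 was -3.37 (SE 0.60) with limma adjusted p = 0.942, so it did not pass over all genes. Leaving out KO sample 1 brought the limma adjusted p to 2.4e-05, and leaving out KO sample 2 brought it to 3.13e-05; the spread then came from the WT libraries alone, and the calls over all genes also grew, to 371 higher and 878 lower without KO sample 1 and to 129 higher and 439 lower without KO sample 2. Leaving out either WT sample gave an adjusted p of 1.0. Over all settings tried the adjusted p ran from 2.4e-05 to 1.0. The fitted value was -6.56 with a pseudocount of 0.1 CPM and -1.53 with a pseudocount of 5 CPM, so its size is set by that choice.

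The KO values of Sall4 were near 0 without being 0, which a count of no reads would give. Values above 0 and under 0.001 CPM occurred in at least 1 library for 4.59% of all genes. They occurred for 13.8% of the 2776 genes with some but not all curated transcripts in the table, the class of Sall4, and for 2.85% of the 15119 genes with every curated transcript listed. Both KO libraries had such values in 0.865% and 0.245% of these 2 classes. Whether reads given to transcripts outside the table account for the Sall4 value was not tested.

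The KO level of Sall4 was set beside those of genes with similar WT reads. This is a description and not a test, because the range was built on Sall4, chosen with earlier results of these data known. Of 3196 genes with between 22.5 and 50.6 WT reads in all, 13 (0.407%), Sall4 included, were below 0.5 reads in both KO libraries, and the median gene of this range had 12.4 KO reads. The share was 0.388% (2 of 515, Sall4 included) among genes with some of their curated transcripts listed. It was 0.411% (11 of 2679) among genes with every one listed. With 2 genes in the first class, Sall4 among them, these shares cannot compare the classes. These shares depend on the range chosen. Among genes near 0 in KO, the partly listed Dab2 (21 WT reads) and Setd6 (22) fall just outside it. So does Kif3c (21), with its 1 curated transcript listed.

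The tested genes nearest to Sall4 over the 4 libraries, by Euclidean distance of log2(CPM + 1), were Trmt61a, Smok3c, Dab2, Setd6 and Kif3c, at distances of 0.724 to 0.924. Of these, 3 (Trmt61a, Dab2 and Setd6) had some but not all curated transcripts in the table, beside 2776 of all 17924 genes. The 5 were picked by their values, and whether listing bears on them was not tested. Trmt61a, a subunit of a tRNA methyltransferase, was at 0.0011 and 0.0783 CPM in KO, against 7.13 and 6.08 CPM in WT. The sperm motility kinase gene Smok3c, which has near-identical copies and is therefore uncertain, was at 2.41e-06 and 2.86e-13 CPM in KO, against 8.65 and 12.2 CPM in WT. The endocytic adaptor gene Dab2, the lysine methyltransferase gene Setd6 and the kinesin gene Kif3c were each at or below 0.13 CPM in both KO libraries; their WT means were 6.03, 6.14 and 5.88 CPM. Of the other members, Lin28a was the nearest to Sall4 with a distance of 3.85.

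Each relative of Sall4 had about 1 read or more in both KO libraries. In KO sample 2, Sall1 and Sall2 were below the value of 3 reads. Sall1, a kidney and limb regulator, was listed at 5.38 and 3.06 CPM in KO, about 4.0 and 1.8 reads, and near 0 in both WT libraries (1.31e-05 and 0.00166 CPM). The table held 1 row for Sall1 too, where RefSeq has 3 curated transcripts. Its rounded estimates of 6 KO and 0 WT reads put the exact 95% lower bound of the depth-scaled ratio at 3.08. Sall1 did not pass over all genes (limma adjusted p = 0.942). Sall2 was at 8.34 and 1.76 CPM in KO and 3.50 and 4.99 CPM in WT, and Sall3 at 18.4 and 15.5 CPM in KO and 23.3 and 12.8 CPM in WT. Both overlapped between genotypes. Summed over Sall1 to Sall4 the level was 32.1 and 20.3 CPM in KO and 38.9 and 24.9 CPM in WT, which also overlapped.

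Among the other undifferentiated genes, 3 regulators known from stem cell maintenance overlapped between genotypes. Zbtb16, the transcription factor PLZF, was at 6.76 and 5.18 CPM in KO and 7.50 and 3.36 CPM in WT. Id4, an inhibitor of helix-loop-helix factors that marks the stem cell pool, was at 30.6 and 36.8 CPM in KO and 39.9 and 28.2 CPM in WT. Lin28a, an RNA-binding protein that blocks let-7 maturation, was at 6.31 and 3.34 CPM in KO and 4.08 and 4.75 CPM in WT.

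Their fitted log2 fold changes were 0.19 (SE 0.53) for Zbtb16, 0.00 (SE 0.26) for Id4 and 0.06 (SE 0.53) for Lin28a, and the limma adjusted p lay between 0.977 and 1.0. The precision differed with the reads. Id4 had 45 KO and 120 WT reads, and its depth-scaled ratio of 0.982 had an exact 95% interval of 0.681 to 1.39. Lin28a rested on 7 KO and 16 WT reads with an interval of 0.399 to 2.94, and Zbtb16 on 8 and 19 reads with an interval of 0.418 to 2.64. In KO sample 2, Lin28a was below the value of 3 reads. Counting error alone allows differences up to these bounds. At the start of Id4 on chromosome 13, 1509 bases overlap A330033J07Rik on the other strand, listed at 1.42 and 0 CPM in KO and 0.844 and 3.19 CPM in WT. The sources used here do not say whether counting used strand, so reads from the overlap cannot be told apart.

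Gfra1, the receptor subunit that binds glial cell line-derived neurotrophic factor, was at 10.7 and 10.03 CPM in KO and 13.2 and 11.7 CPM in WT. Both KO values lay below both WT values. The difference was within the error, with a log2 fold change of -0.24 (SE 0.35, limma adjusted p = 0.953) and a read ratio of 0.833 after scaling for depth (exact 95% interval 0.422 to 1.55).

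Uchl1, a deubiquitinase abundant in spermatogonia, was the member with the most reads. It stood at 60.1 and 70.2 CPM in KO and at 46.9 and 49.8 CPM in WT, and both KO libraries were above both WT libraries. The log2 fold change was 0.42 (SE 0.19) and did not pass over all genes (limma adjusted p = 0.942). Counting error alone gave a ratio of 1.33 with an exact 95% interval of 1.02 to 1.74, from 87 KO and 171 WT reads.

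The differentiating genes all had a positive fold change, and 0 of the 3 passed. Dmrt1, a transcription factor that holds back meiosis in spermatogonia and is also made by Sertoli cells, was at 37.1 and 26.6 CPM in KO and 23.8 and 16.3 CPM in WT. Stra8, the retinoic acid-induced factor of meiotic entry, was at 16.0 and 14.6 CPM in KO and 7.56 and 12.6 CPM in WT. For both genes the lower KO library was above the higher WT library. Kit, which Leydig cells also express, was at 16.0 and 20.8 CPM in KO and 17.2 and 15.4 CPM in WT, with overlap.

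The log2 fold change was 0.64 (SE 0.30) for Dmrt1, 0.59 (SE 0.38) for Stra8 and 0.16 (SE 0.31) for Kit, with a limma adjusted p of 0.942, 0.942 and 0.966. From 44 KO and 71 WT reads, the ratio of Dmrt1 after scaling for depth was 1.62 (exact 95% interval 1.09 to 2.40). The interval ran from 0.848 to 2.69 for Stra8 and from 0.655 to 1.81 for Kit. Over the 9 members the genotypes did not overlap in 3 genes higher in KO (Uchl1, Stra8 and Dmrt1) and 2 lower (Gfra1 and Sall4); among all tested genes 15.0% were without overlap and higher, and 19.4% without overlap and lower.

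**Figure D2:**
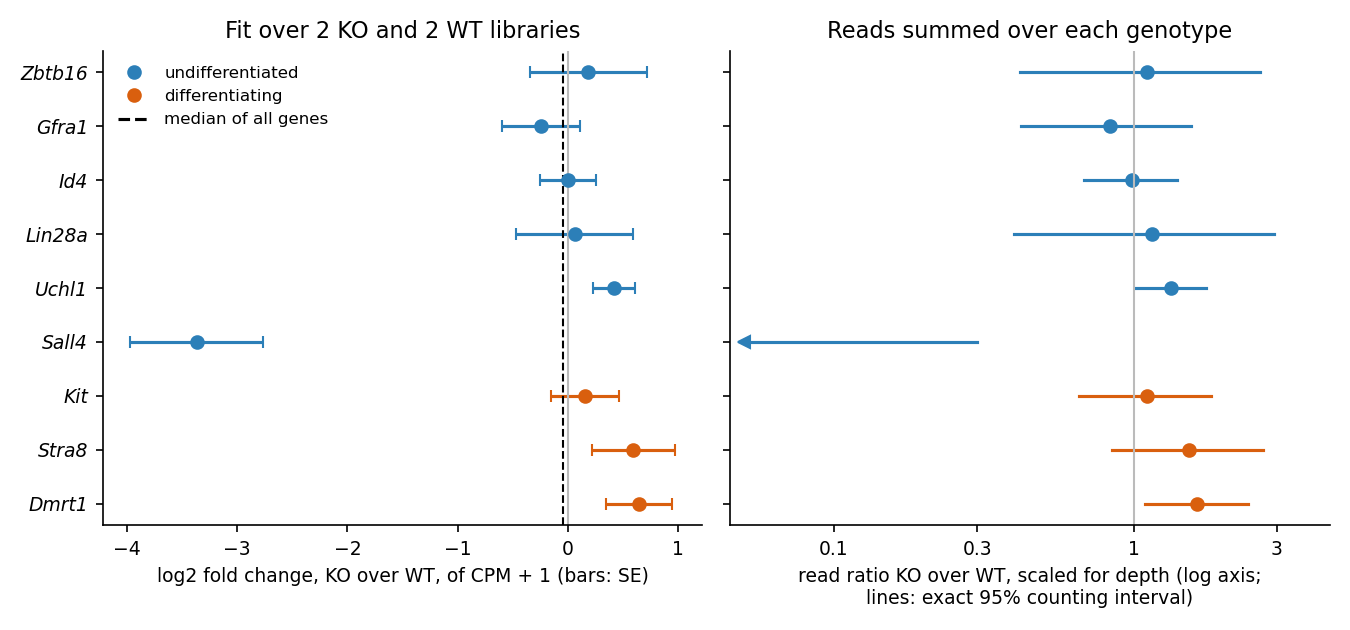
Left, log2 fold change of CPM + 1, KO over WT, with its SE for each member, and the median of all tested genes at -0.05 (dashed). Right, pooled reads of KO over WT scaled for depth on a log axis with exact 95% counting intervals. The arrow marks Sall4, with 0 KO reads after rounding and an upper bound of 0.30, and the intervals of Uchl1 and Dmrt1 lie above 1.

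The stages were then set against each other. The median log2 fold change was 0.03 over the 6 undifferentiated genes in the table, and 0.59 over the 3 differentiating genes, beside -0.05 over all tested genes. Single libraries moved both: the undifferentiated median was -0.13 without KO sample 1 and -0.27 without WT sample 2, and the differentiating median was 0.26 without WT sample 1 and 0.385 without WT sample 2. In summed CPM the undifferentiated genes stood at 114.5 and 125.6 in KO and at 123.7 and 104.9 in WT, which overlapped. The differentiating genes stood at 69.2 and 62.1 CPM in KO and at 48.6 and 44.4 CPM in WT, without overlap. Dmrt1, made in both stages, supplied 37.1 and 26.6 CPM of this in KO and 23.85 and 16.3 CPM in WT. Without Dmrt1 the differentiating median was 0.375. The ratio of undifferentiated to differentiating was 1.66 and 2.02 in KO, below the 2.55 and 2.36 in WT.

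The log2 of this ratio was lower in KO by a mean difference of -0.42, against an SD of 0.15 between libraries of a genotype. An exact permutation test of 2 against 2 libraries cannot go below 0.33, so none was made. The difference was -0.74 without Uchl1, -0.30 without Sall4 and -0.28 without Dmrt1. Each gene was left out alone, so these values do not show whether a difference remains without Sall4 and Dmrt1 together. With all genes kept, the difference lay between -0.57 (without KO sample 2) and -0.28 (without KO sample 1) when any 1 library was left out. Uchl1 supplies the greatest part of the undifferentiated sum and Sall4 enters it through WT alone, so the sum is not a count of cells.

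**Figure D3:**
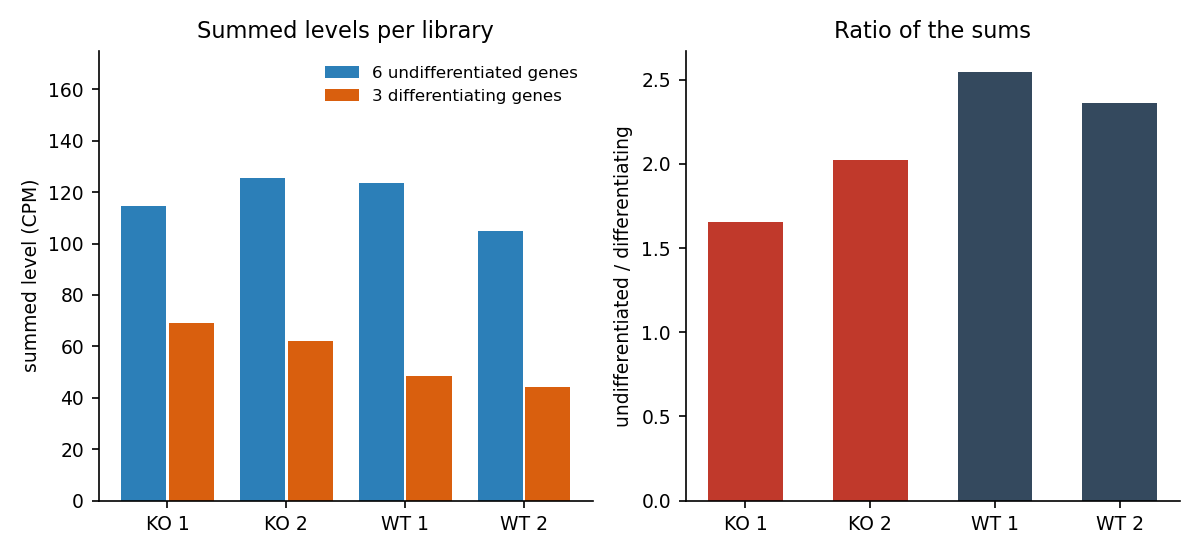
Left, summed CPM of the 6 undifferentiated and 3 differentiating genes in each library. Right, their ratio, at 1.66 and 2.02 in the KO libraries (red) and 2.55 and 2.36 in the WT libraries (dark blue); bars start at 0.

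Marker genes of other testis cells were summed in the same libraries. The 10 spermatocyte markers reached 1353 and 1123 CPM in KO and 1059 and 1052 CPM in WT, higher in KO without overlap. Of these, Hormad1 (log2 fold change 0.55) and Sycp1 (0.46) had an unadjusted limma p under 0.05, where 1.37% of all genes were higher. Over all genes, 0 of the 10 passed. Stra8 and Dmrt1 lay higher in these same KO libraries, and the part of other germ cells in their values was not tested. The 12 Sertoli cell markers, which bear on Dmrt1, summed to 1452 and 1216 CPM in KO and 1358 and 1371 CPM in WT, of which 1182 and 998 CPM in KO and 1128 and 1154 CPM in WT was Clu. Their median log2 fold change was 0.12, with 8 of 12 estimates above 0. The 1 gene higher without overlap, beside 15.0% of all genes, was Rhox5 (17.4 and 10.03 CPM in KO, 9.31 and 7.75 CPM in WT). The 7 Leydig cell markers, which bear on Kit, summed to 1626 and 1687 CPM in KO and 1791 and 1884 CPM in WT. This sum was lower in KO without overlap. Insl3, at 1234 and 1278 CPM in KO and 1517 and 1464 CPM in WT, supplied most of that sum; the median log2 fold change of the 7 was 0.11, with 4 estimates above 0. The 6 round spermatid markers summed to 1598 and 1871 CPM in KO and 1692 and 1561 CPM in WT, with Spaca1 the 1 gene at an unadjusted p under 0.05. Macrophage markers (4 in the table) summed to 22.0 and 36.9 CPM in KO and 31.3 and 32.3 CPM in WT. The 4 peritubular myoid markers summed to 76.3 and 75.3 CPM in KO and 92.5 and 101.9 CPM in WT, lower in KO without overlap.

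Per kilobase of transcript the members kept nearly one order. Uchl1 was highest at 56.8 ± 6.25 CPM per kb in KO and 42.1 ± 1.77 in WT (SD, n = 2 each). Dmrt1 followed at 14.2 ± 3.28 in KO and 8.93 ± 2.36 in WT. Stra8 came next in KO at 10.4 ± 0.67 and Id4 after it at 8.51 ± 1.10, whereas in WT Id4 at 8.59 ± 2.10 overlapped with Dmrt1 above it and with Stra8 below it, at 6.88 ± 2.45. Kit at 3.56 ± 0.65 and 3.15 ± 0.24 CPM per kb and Gfra1 at 2.22 ± 0.10 and 2.67 ± 0.24 CPM per kb (KO and WT) were lower. Sall4, at 2.38 and 1.41 CPM per kb in the WT libraries, ranked there between Gfra1 and Lin28a. Lin28a at 1.39 ± 0.60 and 1.27 ± 0.14 and Zbtb16 at 0.783 ± 0.146 and 0.712 ± 0.384 CPM per kb (KO and WT) were the lowest of the other members.

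The 3 members with several listed transcripts showed how far the libraries could separate them. Kit was divided 46.2% to 53.8% between the transcript with and the transcript without the 12 bases, and this split was the same to 4 digits in all 4 libraries. The 3 listed Gfra1 transcripts had 45.4%, 38.8% and 15.8% of the gene in every library. A split that does not vary between libraries of different depth carries no measurement of the isoforms, and only the gene sums are compared here. For Zbtb16 the transcript of 7610 bases had 0.405% and 52.9% of the gene in KO samples 1 and 2. In WT samples 1 and 2 it had 0.0001% and 52.9%. The split was thus the same to 4 digits in samples 2 of both genotypes, which carries no measurement of the isoforms either. The values of samples 1 were low and unlike each other.

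**Figure D4:**
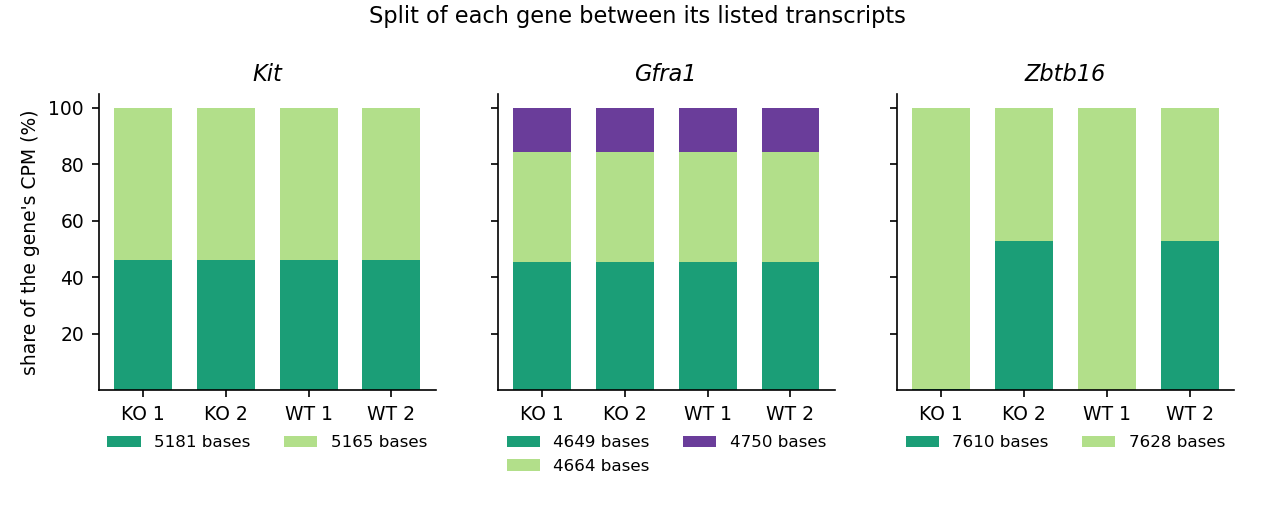
Share of each gene's CPM, in percent, given to its listed transcripts (named by length) in KO samples 1 and 2 and WT samples 1 and 2. Kit and Gfra1 show the same split in all 4 libraries, and Zbtb16 differs between samples 1 and samples 2.

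Other spermatogonial genes gave no call. Of 26 further undifferentiated genes 22 were tested, with 8 estimates above 0 and 14 below, a median of -0.25 and 0 calls over all genes. The 1 gene with an unadjusted limma p under 0.05 was Thy1, where 3.33% of all genes were lower. Thy1, a surface protein used to enrich stem cells and also made by other cells, had about 0 reads in KO and 10 in WT. It met the filter only through the WT libraries. Its KO values, 1.99e-36 and 2.07e-25 CPM, were near 0 without being 0, as for Sall4. The exact 95% upper bound of its depth-scaled ratio was 1.17, so counting error alone allows no difference. Ret, the signalling partner of GFRA1, was at 0 and 3.60 CPM in KO and 5.95 and 3.12 CPM in WT. Shisa6 was at 1.58 and 1.73 CPM in KO and 4.80 and 3.12 CPM in WT, and its 2 KO reads and 14 WT reads left a ratio of 0.374 with an exact 95% interval of 0.0413 to 1.63. Without overlap between genotypes, 5 of the 22 were higher and 4 lower, beside 15.0% and 19.4% of all genes.

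The list of differentiating or general spermatogonial genes had 16 tested members, with 7 estimates above 0 and 9 below, a median of -0.06 and 0 calls. Stk31, a germ cell protein with a Tudor domain, was at 62.6 and 68.6 CPM in KO and 43.0 and 41.0 CPM in WT. It was the 1 member with an unadjusted limma p under 0.05, where 1.37% of all genes were higher. Its log2 fold change of 0.63 (SE 0.19) had a limma adjusted p of 0.942. Rhox13, a homeobox gene of differentiating germ cells, was at 8.24 and 8.12 CPM in KO and 4.51 and 4.01 CPM in WT. The DNA methyltransferase gene Dnmt3a was at 13.4 and 16.3 CPM in KO and 20.9 and 19.4 CPM in WT. These 3 genes were the ones with the smallest p; in the whole list 3 of 16 were higher and 2 lower without overlap, beside 15.0% and 19.4% of all genes.

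Several genes of the niche and of the retinoic acid pathway rested on few reads. Of 7 tested niche genes 0 were called and the median was 0.15. Gdnf, the neurotrophic factor that keeps the undifferentiated pool, had 1 KO and 9 WT reads, and its ratio after scaling for depth was 0.291 (exact 95% interval 0.0066 to 2.10). Wnt5a had 5 KO and 3 WT reads (ratio 4.37, exact 95% interval 0.849 to 28.1), and Fgfr1 was at 18.3 and 6.70 CPM in KO and 14.4 and 17.5 CPM in WT. Of 14 tested retinoic acid genes 0 were called and the median was -0.24, with 1 without overlap and higher and 8 without overlap and lower, beside 15.0% and 19.4% of all genes. Rdh10, which makes retinal from retinol, was the higher one at 19.0 and 28.4 CPM in KO and 13.5 and 16.0 CPM in WT. Of the lower ones, Aldh1a2 had the most reads, 113 in KO and 368 in WT. Its ratio was 0.804 (exact 95% interval 0.646 to 0.996), and its limma adjusted p was 0.942. Aldh1a3, which makes retinoic acid, had 1 KO and 16 WT reads (ratio 0.164, exact 95% interval 0.0039 to 1.05). Cyp26c1, which degrades it, had rounded estimates of 0 KO and 12 WT reads and met the filter only through the WT libraries. Its KO values were 1.55e-30 and 1.37e-21 CPM, near 0 without being 0, as for Sall4. The exact 95% upper bound of its ratio, 0.943, takes these estimates as counts and covers counting error only.

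SALL4 is known to bind the NuRD complex, which removes acetyl groups from histones and moves nucleosomes. Of the 15 other genes of that complex and the SALL family, 0 were called, 5 estimates were above 0 and 10 below, and the median was -0.15. Rbbp4, a histone-binding subunit, was at 215.1 and 160.6 CPM in KO and 154.3 and 150.4 CPM in WT. Mta2, a scaffold subunit, was at 57.4 and 60.7 CPM in KO and 70.2 and 67.4 CPM in WT. Neither gene overlapped between genotypes, and neither had an unadjusted limma p under 0.05. Without overlap, 3 of the 15 were higher and 1 lower, beside 15.0% and 19.4% of all genes. The 1 gene of the list with an unadjusted limma p under 0.05 was Sall1, where 1.37% of all genes were higher. Sall1 met the filter only through the KO libraries.

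**Figure D5:**
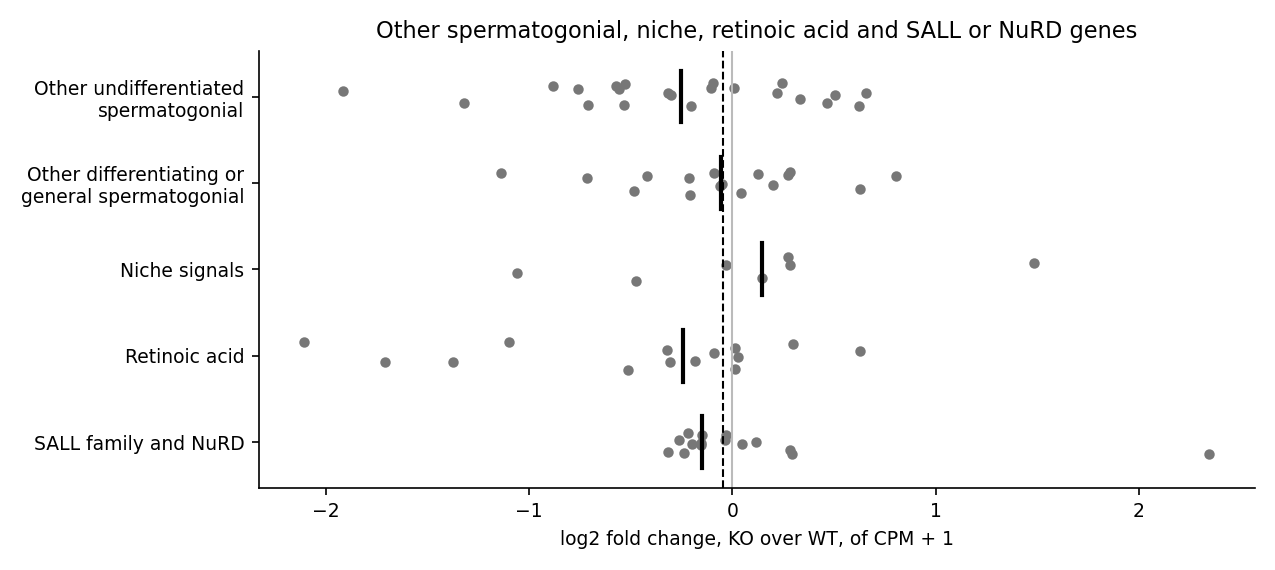
Log2 fold change of CPM + 1, KO over WT, for each tested gene (points) of the lists of related genes, with the list medians (black bars) between -0.25 and 0.15 and the median of all genes at -0.05 (dashed). The points spread to both sides of 0 in every list.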

How the data were processed

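The authors deposited CPM per RefSeq transcript, scaled over the listed transcripts to a total of 1000000 in each library; STAR and Partek on mm39 were used, per the submitters' processing notes, and the sources used here give neither versions nor settings. All 4 sample tables matched their columns of the series table exactly. Transcripts were summed per gene symbol. The value of 1 read was taken from the spacing of the commonest low values; between 22.9% and 48.1% of gene values of at least 0.5 reads were whole to within 0.02 reads. Reads had thus been split among transcripts, whole counts were not recovered and read numbers are rounded estimates. Intervals (95%) and floors cover counting error only.

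Every gene at 1 CPM or more in 2 or more libraries entered limma 3.58.1 (R 4.3.3), fitted to log2(CPM + 1) with the spread following the mean, threshold 0.05 after Benjamini-Hochberg adjustment. Curated transcripts were counted in the RefSeq table of GRCm38.p6, used for names only; transcript sequences are from GENCODE M21. Promoter sequences were not used.

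Members and lists were chosen with earlier results of these data known. Named genes were all members, the 3 genes of each related list with the smallest p, and the 5 nearest to Sall4, unnamed gene models left out. Aldh1a2 was added for its number of reads. Marker genes are given as sums, beside those with an unadjusted p under 0.05. Alternatives covered pseudocount, filter, scaling, trend, replicate block and each library left out. Tables used Python 3.11.15 and pandas 2.3.3.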

Additional observations from a re-analysis of the deposited data

How the results depend on the processing

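The main fit called 0 members, so there was no call to reverse. Sall4 was the only member called under any setting tried. The count of members called lower was 0 or 1 when 1 library was left out, and 1 (Sall4, adjusted p = 0.0162) with the replicate block. The labels do not say what the replicate numbers stand for. The differences between samples 1 and 2 of the genotypes had r = -0.0054 across genes. At this depth that value cannot decide whether samples with the same number were paired. With the replicate block, 6 genes were called higher and 17 lower. Over all genes, leaving out 1 library gave 0 to 371 higher and 0 to 878 lower calls. The lower count was 0 with a pseudocount of 0.1 CPM and 0 without a mean trend. The undifferentiated median lay between -0.27 and 0.11 when 1 library was left out and was 0.03 with Sall4 at its floor, an alternative chosen after seeing the data. The differentiating median lay between 0.26 and 0.66 when 1 library was left out, and was 0.45 with a pseudocount of 5 CPM and 0.38 without Dmrt1. The stage ratio moved to -0.74 without Uchl1. The causes of these changes were not tested. Id4, Lin28a, Zbtb16 and Kit changed the sign of their estimates under some alternatives, without a call. Lin28a has no value with the filter at 5 CPM. Depth limits every gene with few KO reads, such as Lin28a with 7 and Zbtb16 with 8.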
